A study of Mus musculus with 29 samples.

Results

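The 10 genes described here make and load the molecules that show peptides at the cell surface. H2-K1 and H2-D1 encode class I heavy chains of the mouse major histocompatibility complex (MHC), and B2m encodes beta-2 microglobulin, the light chain they need. H2-Aa, H2-Ab1 and H2-Eb1 encode class II chains, and Cd74 encodes the invariant chain that escorts them. Tap1 encodes a subunit of the transporter that moves peptides into the endoplasmic reticulum, and Psmb8 and Psmb9 encode catalytic subunits of the immunoproteasome. The members were found as all probe sets on the array annotated to 1 of these symbols and no other. There were 31 of them among 45101 probe sets, and 10 genes among 18194. Of the 31, 12 had log2 values processed with RMA, a method that corrects background and normalizes arrays together, and 19 had only a MAS5 signal, which is a linear brightness. Another 3 probe sets name a member together with another gene and were left out.

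RNA of mouse retina was measured from RD7, NOD.NON-H2-nb1, CAST/EiJ, AKR/J and C57BL6/J mice at P30.5, about a month after birth, and at E18.5, shortly before birth. CAST/EiJ is a wild-derived strain, NOD.NON-H2-nb1 is a congenic line named for the H2 haplotype it carries, and RD7 mice carry a retinal degeneration mutation. AKR/J is known to carry the k haplotype of H2 and C57BL6/J the b haplotype. The 5 strains and both ages gave 29 arrays, 3 per group, with the exception of the E18.5 AKR/J group with 2. The RNA on an array came from a pool of 10 retinas, so replicates are pools and not single mice, and p-values measure the spread between pools.

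Class I molecules are made by most nucleated cells and load peptides cut by the proteasome, while class II molecules are made mainly by antigen-presenting cells such as microglia and dendritic cells. Interferons raise the genes of both pathways, and the healthy retina is known for low levels of both. The H2 region is one of the most variable in the mouse genome. Inbred strains carry different H2 haplotypes, so probes designed on one allele can match the transcript of another strain poorly. In a comparison of strains, the amount of a transcript and its match to the probes cannot be told apart. Of the 31 probe sets, 17 end in _x_at and 2 in _s_at, suffixes the manufacturer gives to probe sets that can match more than 1 gene.

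In GRCm38.p6, 8 of the genes lie on chromosome 17. H2-K1 spans bases 33996012 to 34000619, Psmb9 34182030 to 34187330, Tap1 34187556 to 34197225, Psmb8 34198195 to 34201454, H2-Ab1 34263227 to 34269418, H2-Aa 34282744 to 34287823, H2-Eb1 34305867 to 34316674 and H2-D1 35263094 to 35267497. B2m lies on chromosome 2 at bases 122147687 to 122153082. The stretches of 180 bases before an annotated start of 6 of the genes are shown because they hold short elements known from class I and class II promoters, those of NF-kB, interferon, the RFX complex (X box) and NF-Y (Y box). RefSeq lists more than 1 start for H2-K1, and the first listed, used here, lies inside the span given. They come from RefSeq promoters of GRCm38.p6, run 5′ to 3′, and show the reference (C57BL/6J) allele. Capitals mark matches to GGGATTCCC (the NF-kB site of the class I enhancer), GTTTCACTT (in the interferon response element of class I genes), GAAANNGAA (the core of an interferon-stimulated response element), CTGATTGG (the Y box) and CTAGCAAC (part of the X box), searched on both strands. No matches in these stretches overlapped.
H2-K1 (chr17:34000348-34000527, minus strand): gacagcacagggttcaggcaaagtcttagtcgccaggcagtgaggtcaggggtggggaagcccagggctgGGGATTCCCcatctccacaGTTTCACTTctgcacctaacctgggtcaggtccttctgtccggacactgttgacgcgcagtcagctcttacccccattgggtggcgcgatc
H2-D1 (chr17:35262914-35263093, plus strand): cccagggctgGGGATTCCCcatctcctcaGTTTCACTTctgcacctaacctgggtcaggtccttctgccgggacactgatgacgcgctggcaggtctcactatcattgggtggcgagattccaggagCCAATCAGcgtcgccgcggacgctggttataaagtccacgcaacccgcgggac
B2m (chr2:122147507-122147686, plus strand): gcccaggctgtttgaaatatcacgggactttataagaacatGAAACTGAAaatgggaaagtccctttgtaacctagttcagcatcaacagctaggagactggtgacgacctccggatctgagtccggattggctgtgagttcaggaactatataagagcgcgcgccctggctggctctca
H2-Aa (chr17:34287824-34288003, minus strand): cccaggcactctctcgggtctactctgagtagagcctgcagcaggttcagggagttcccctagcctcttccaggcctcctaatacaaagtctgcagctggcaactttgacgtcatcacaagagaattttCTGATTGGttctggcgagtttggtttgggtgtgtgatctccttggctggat
H2-Eb1 (chr17:34305687-34305866, plus strand): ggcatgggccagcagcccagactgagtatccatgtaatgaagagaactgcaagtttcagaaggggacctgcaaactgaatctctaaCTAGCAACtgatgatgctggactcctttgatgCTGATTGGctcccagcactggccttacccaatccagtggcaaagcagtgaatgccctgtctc
Psmb9 (chr17:34187331-34187510, minus strand): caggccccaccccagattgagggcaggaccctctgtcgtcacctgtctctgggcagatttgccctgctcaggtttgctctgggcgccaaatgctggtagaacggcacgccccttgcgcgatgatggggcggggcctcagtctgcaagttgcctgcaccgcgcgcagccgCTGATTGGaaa
H2-K1 and H2-D1 share the NF-kB site and the interferon element in the same order, and H2-D1 has the Y box on the opposite strand as well. The NF-kB site is in the 250 bases before the start of 0.311% of 27025 annotated genes and the class I interferon element in 0.352%. Both runs of letters were chosen from known class I elements, so their matches in H2-K1 and H2-D1 are no test of enrichment. H2-Ab1 and Cd74 were not searched. The interferon-stimulated core, found in B2m alone among the 8 searched, is in 7.16%. The Y box, in H2-Aa, H2-Eb1, H2-D1, Psmb9 and Tap1, is in 4.07%, and the X box part, in H2-Eb1, is in 1.2%. A match is a run of letters and not a measured site. The match in Tap1 is the one shown for Psmb9, since these 2 genes start close together on opposite strands.

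The arrays had similar overall levels, with medians of 6.74 to 6.96 for RMA values and 91.9 to 135.3 for MAS5 signals. Photoreceptor genes showed the tissue plainly at P30.5, where Nrl was at 1.879e+04 to 3.695e+04 and Crx at 9444 to 1.487e+04 MAS5 signal in every array. The E18.5 pools differed in tissue from around the retina. Summed MAS5 signals of 6 skeletal muscle genes were 28778 and 31099 in the AKR/J arrays, 963, 28864 and 18232 in RD7, 19752, 1349 and 2038 in CAST/EiJ and 17294, 442 and 2317 in the NOD.NON-H2-nb1 pools, against 418, 391 and 392 in C57BL6/J. Those of 5 mesenchyme genes were 28558 and 32369 in AKR/J, 844, 20489 and 30370 in RD7, 23016, 1324 and 5979 in CAST/EiJ and 9186, 214 and 933 in the NOD.NON-H2-nb1 strain, against 2432, 406 and 174 in C57BL6/J. At P30.5 the sums were at most 717 and 1194 in any array. Sums of 6 pigment epithelium and melanocyte genes at E18.5 were 24193 and 21424 in AKR/J, 15057, 17692 and 27253 in RD7, 19672, 19995 and 16351 in CAST/EiJ and 4016, 3515 and 18631 in the NOD.NON-H2-nb1 pools, against 2594, 2354 and 1393 in C57BL6/J, so that each C57BL6/J array lay below every array of the other strains. At P30.5 the pigment sums ran from 5975 to 35596, with the 3 AKR/J arrays highest. Comparisons at E18.5 and between ages therefore set arrays with different levels of these genes side by side. An alternative fit took the summed muscle and mesenchyme level as a covariate, and the part of the pigment genes in each result was not tested. In bulk RNA, fewer cells of a type and less RNA per cell cannot be told apart.

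The class I heavy chain probe sets set CAST/EiJ and AKR/J apart from C57BL6/J at both ages. H2-K1 probe set 1425336_x_at had RMA values of 6.59, 6.46 and 6.27 in CAST/EiJ and 6.60, 6.30 and 5.93 in AKR/J arrays at P30.5, against 9.11, 9.06 and 9.23 in C57BL6/J. Each CAST/EiJ and AKR/J array was below each C57BL6/J array by more than 2 log2 units. The differences were -2.69 (SE 0.22, adjusted p = 1.07e-09) in CAST/EiJ and -2.85 (SE 0.22, adjusted p = 1.47e-09) in AKR/J (limma, n = 3 arrays per group). At E18.5 the same probe set read 6.69, 6.17 and 6.26 in CAST/EiJ and 6.14 and 5.77 in AKR/J, against 7.73, 7.57 and 7.80 in C57BL6/J, and fell by 1.32 (adjusted p = 5.69e-05) and 1.75 (adjusted p = 2.19e-05) on the log2 scale. The gap was narrower at E18.5 than at P30.5 in both strains, and of these 3 strains C57BL6/J was the one called between the ages.

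The second H2-K1 probe set of the RMA table, 1451931_x_at, separated the strains in another way. At P30.5 it read 6.88, 6.88 and 6.85 in AKR/J and 8.47, 8.49 and 8.40 in CAST/EiJ, against 9.43, 9.38 and 9.49 in C57BL6/J. The AKR/J difference was -2.56 (SE 0.19, adjusted p = 8.21e-10). The CAST/EiJ difference, -0.98 (adjusted p = 0.000393), passed the p threshold but was just under 2-fold and was not called. At E18.5 the values were 7.94, 7.27 and 7.32 in CAST/EiJ and 7.29 and 7.31 in AKR/J, against 8.79, 8.71 and 9.06 in C57BL6/J, with differences of -1.34 (adjusted p = 7.89e-06) and -1.55 (adjusted p = 1.7e-05). In order of their P30.5 means the strains were AKR/J at 6.87, CAST/EiJ at 8.46, C57BL6/J at 9.44, NOD.NON-H2-nb1 at 9.63 and RD7 at 10.12. C57BL6/J and NOD.NON-H2-nb1 overlapped, as did NOD.NON-H2-nb1 and RD7, whereas the gaps on both sides of CAST/EiJ were free of overlap.

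H2-D1 is read by 5 probe sets of the RMA table, and they disagreed with each other in sign. Probe set 1425545_x_at gave the largest drop of any member in the RMA values. It read 5.84, 5.93 and 5.53 in AKR/J and 8.01, 7.52 and 7.78 in CAST/EiJ at P30.5, against 9.61, 9.60 and 9.86 in C57BL6/J, and the differences were -3.92 (SE 0.28, adjusted p = 5.07e-10) and -1.92 (SE 0.28, adjusted p = 1.37e-05). At E18.5 they were -3.04 (adjusted p = 3.27e-07) in AKR/J, with values of 5.72 and 6.11, and -2.13 (adjusted p = 3.11e-06) in CAST/EiJ, with values of 7.62, 6.25 and 6.60, against 8.65, 8.94 and 9.27 in C57BL6/J. Probe set 1451784_x_at read 7.31, 7.32 and 7.26 in AKR/J and 7.58, 7.67 and 8.34 in CAST/EiJ, against 9.28, 9.11 and 9.52 in C57BL6/J at P30.5. Its differences were -2.01 (adjusted p = 3.92e-05) and -1.44 (adjusted p = 0.000576) at P30.5, and -1.71 (adjusted p = 7.75e-05) in CAST/EiJ at E18.5. AKR/J at E18.5, -1.23 (adjusted p = 0.00952), was not called.

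Probe set 1451683_x_at of H2-D1 was called in AKR/J alone, lower at both ages. It read 3.65, 3.68 and 3.84 there at P30.5 and 5.66, 5.53 and 5.94 in CAST/EiJ, against 5.52, 5.61 and 5.54 in C57BL6/J. The AKR/J difference was -1.84 (adjusted p = 2.46e-05) at P30.5 and -1.71 (adjusted p = 0.000171) at E18.5, and the CAST/EiJ difference was 0.15 (adjusted p = 0.741) at P30.5. Probe set 1450170_x_at ran the other way on RMA values. On MAS5 signals the direction was the same but none of its calls held, at 2.79 (adjusted p = 0.0317) in CAST/EiJ at P30.5 and, for AKR/J, 2.74 (adjusted p = 0.105) at P30.5 and 4.42 (adjusted p = 0.00536) at E18.5. It read 6.53, 7.13 and 6.97 in CAST/EiJ and 6.92, 6.35 and 6.80 in AKR/J at P30.5, against 3.89, 4.05 and 3.77 in C57BL6/J, and was higher by log2 2.97 (SE 0.36, adjusted p = 9.75e-07) and 2.78 (SE 0.36, adjusted p = 9.73e-06). NOD.NON-H2-nb1 arrays, at 3.93, 4.18 and 3.60, and RD7 arrays, at 3.73, 4.09 and 4.03, overlapped with C57BL6/J. At E18.5 the 3 CAST/EiJ arrays spread widely on this probe set, at 6.66, 4.08 and 4.73, against 3.85, 3.64 and 3.53 in C57BL6/J, and their difference of 1.48 (adjusted p = 0.00345) was not called. AKR/J arrays read 5.99 and 6.52 there and were called higher, by 2.59 (adjusted p = 8.43e-05). With the summed muscle and mesenchyme level of each array as a covariate, the AKR/J difference at E18.5 was 1.71 (adjusted p = 0.0634). The remaining one, 1426324_at, was called in no strain, with -1.10 (adjusted p = 0.00286) in AKR/J at E18.5 as its widest difference.

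**Figure D1:**
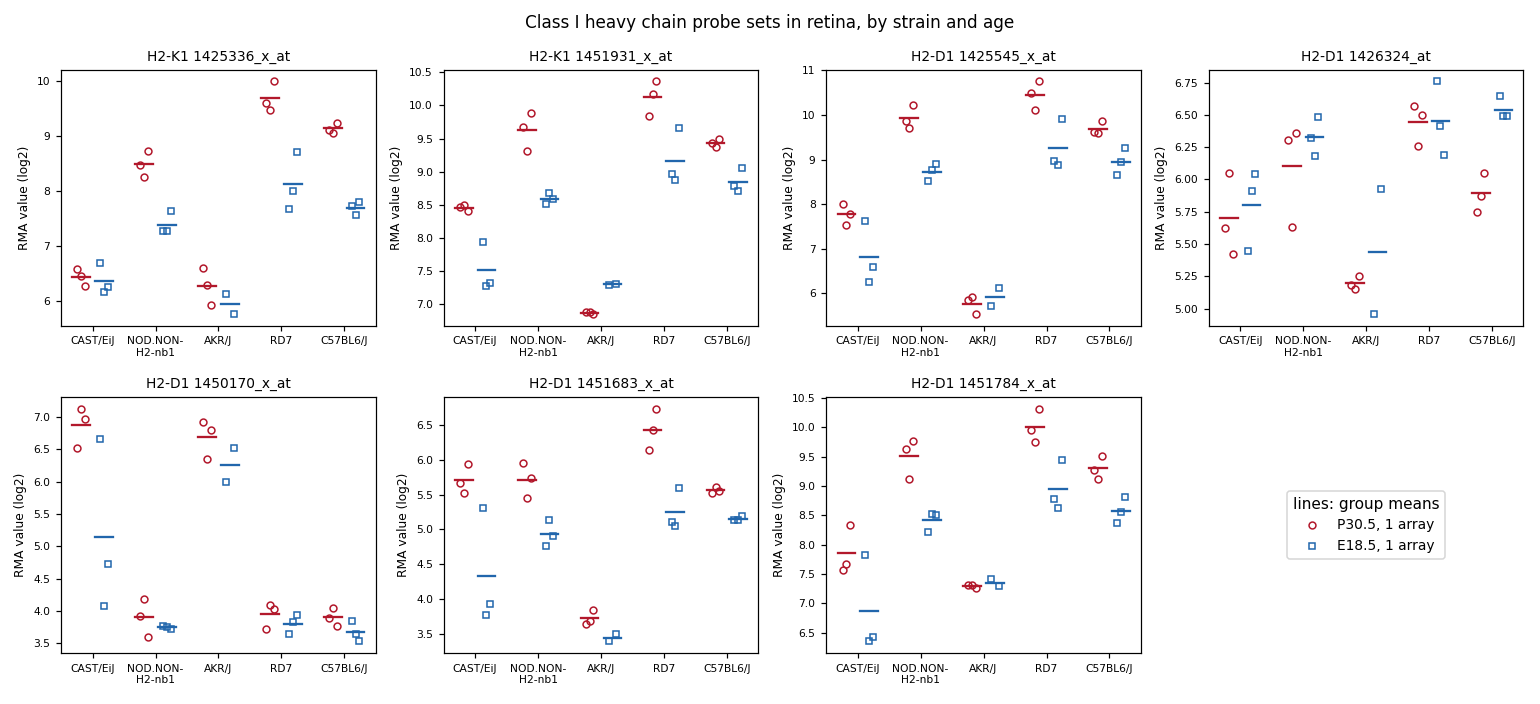
RMA values (log2) of the 2 H2-K1 and 5 H2-D1 probe sets in every array, by strain, with P30.5 arrays as circles, E18.5 arrays as squares and group means as lines. On 1425336_x_at and 1425545_x_at the CAST/EiJ and AKR/J arrays lie below all others, and on 1450170_x_at they lie above them at P30.5.

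CAST/EiJ replicate 1 at E18.5 was the highest of its group on 6 of the 7 class I probe sets, the exception being 1426324_at, and it was also the array of its group with the highest muscle and mesenchyme sums, 19752 and 23016. Among the RD7 arrays at E18.5, replicate 3 stood highest on 6 of these 7 probe sets. Its sums were 18232 for muscle and 30370 for mesenchyme, and those of replicate 2 were 28864 and 20489. The highest sums did not go with the highest values in every group. NOD.NON-H2-nb1 replicate 1 at E18.5 had the highest muscle and mesenchyme sums of its group, 17294 and 9186. On H2-K1 1425336_x_at that array was the lowest of its group, just below replicate 2. C57BL6/J replicate 1 at E18.5, with the highest sums of its group, 418 and 2432, was lowest on H2-D1 1425545_x_at and highest on 1450170_x_at. The part of surrounding tissue in these values was not tested.

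Counted over the 12 probe sets with RMA values, a difference was called where its adjusted p was under 0.001 and it was 2-fold or more. In CAST/EiJ, 4 were called at E18.5 and 4 at P30.5, where 7.84% and 6.73% of all 25444 probe sets were called. In AKR/J, 5 were called at E18.5 and 6 at P30.5, against 4.38% and 1.69% of all probe sets. All 19 of these calls were on H2-K1 or H2-D1. 16 of them were lower in the strain than in C57BL6/J, and the 3 higher ones were all on 1450170_x_at. In NOD.NON-H2-nb1, limma called 0 at both ages, where 1.63% and 1.64% of all probe sets were called, and 1 and 2 had an unadjusted p under 0.05. In RD7 it also called 0 at both ages, where 0.295% and 0.33% of all probe sets were called, and 4 and 6 had an unadjusted p under 0.05. These shares are of calls and cannot be set against the counts by unadjusted p. The probe sets of one gene, and the _x_at probe sets of both genes, share sequence, so they are not independent readings. The median difference of the 12 at E18.5 was -0.19 in CAST/EiJ (all probe sets 0.05), -0.04 in the NOD.NON-H2-nb1 strain (all probe sets 0.00), -0.38 in AKR/J (all probe sets -0.09), and 0.34 in RD7 (all probe sets -0.07). The median difference of the 12 at P30.5 was -0.44 in CAST/EiJ (all probe sets 0.09), -0.10 in the NOD.NON-H2-nb1 strain (all probe sets 0.04), -0.57 in AKR/J (all probe sets 0.03), and 0.48 in RD7 (all probe sets -0.03). On MAS5 signals, 2 of the 12 were called at P30.5 in CAST/EiJ and 2 in AKR/J. At E18.5, the covariate left 2 in AKR/J and leaving out AKR/J replicate 2 left 3, and a fit of the compared groups alone left 1 in CAST/EiJ.

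**Figure D2:**
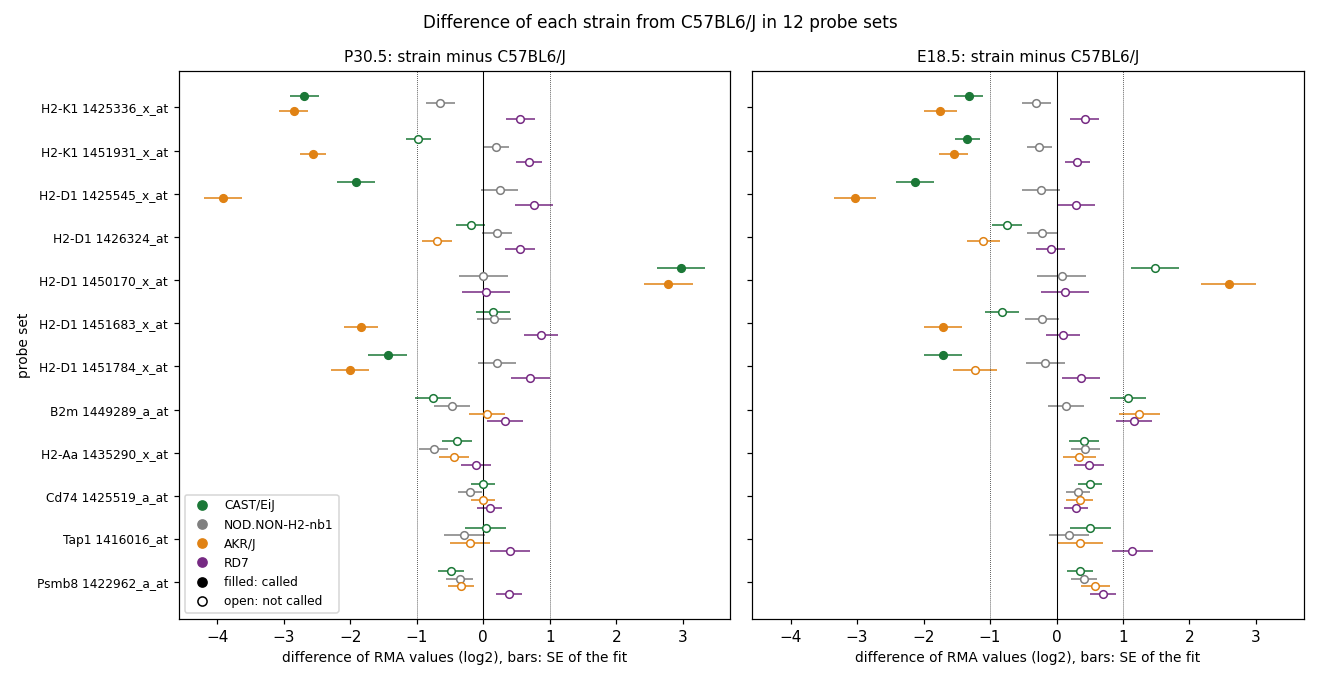
Difference of each strain from C57BL6/J on the 12 probe sets with RMA values (x axis, log2, dotted lines at a 2-fold change), with the SE of the fit as bars and filled points for called differences. Filled points occur only on H2-K1 and H2-D1 and only in CAST/EiJ and AKR/J.

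RD7 retinas at P30.5 had slightly higher values than C57BL6/J retinas on most class I probe sets. Both H2-K1 probe sets, 4 of the 5 H2-D1 probe sets and Psmb8 had all 3 RD7 arrays above all 3 C57BL6/J arrays, which makes 7 of 12 without overlap, all 7 higher, against 9.43% of all probe sets without overlap in either direction. The differences lay between 0.38 and 0.87, with 0.69 on 1451931_x_at (adjusted p = 0.104) and 0.87 (adjusted p = 0.146) on 1451683_x_at those with the smallest p. None passed the adjusted threshold. The summed signal of 13 interferon-induced genes at P30.5 was 9167, 6159 and 4996 in RD7 arrays and 4717, 3770 and 4491 in C57BL6/J arrays. Of these 13 genes, 0 were called in this comparison by limma, and 2 had an adjusted p under 0.05. Whether the class I values followed the interferon sums from array to array was not tested.

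At E18.5 both B2m probe sets had higher values in 3 strains than in C57BL6/J, by a little over 2-fold. The RMA values of 1449289_a_at were 10.17 and 10.18 in AKR/J, 9.64, 9.97 and 10.69 in RD7, 10.51, 9.83 and 9.67 in CAST/EiJ and 8.98, 8.74 and 9.48 in the NOD.NON-H2-nb1 pools, against 8.74, 9.04 and 9.01 in C57BL6/J. The AKR/J, RD7 and CAST/EiJ arrays were all above the highest C57BL6/J array, and NOD.NON-H2-nb1 arrays overlapped it. The differences were 1.25 (SE 0.30, adjusted p = 0.00528) in AKR/J, 1.17 (SE 0.27, adjusted p = 0.0113) in RD7 and 1.07 (SE 0.27, adjusted p = 0.00444) in CAST/EiJ, none of which was called. Of all RMA probe sets, 50.2%, 23.2% and 44.2% had no overlap in these comparisons, in either direction. The other probe set, 1452428_a_at, gave MAS5 signals of 2031, 1427 and 1523 in CAST/EiJ, 1382 and 1525 in AKR/J and 1174, 1221 and 2003 in RD7, against 670.2, 505 and 658 in C57BL6/J. Here the CAST/EiJ difference of 1.44 (adjusted p = 0.000724) was called. That call was lost when any 1 array of either group was left out, and with the muscle and mesenchyme level as a covariate, where the difference was 1.12 (adjusted p = 0.0135). Blocked on the date in the titles, it was 1.57 (adjusted p = 0.00176).

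The 5 genes whose log2 MAS5 signals were most like those of 1449289_a_at over the 29 arrays, among 14565 genes with a highest group mean of log2 6 or more, were Stard8 (Pearson r = 0.860), Wls (0.838), Scarf2 (0.830), Pcolce (0.828) and Antxr1 (0.823). The arrays share strain, age and tissue content, and these values are a description. Of the other members, Tap1 was closest to B2m, at 0.587. The pigment sums moved with B2m within groups at P30.5, and only in part at E18.5. At E18.5 the 3 strains with higher B2m had sums of 15057 to 27253, against 1393 to 2594 in C57BL6/J. NOD.NON-H2-nb1 replicate 3, with the highest sum of its group at 18631, was also its highest for B2m, and the same held in RD7. In CAST/EiJ and AKR/J the array with the highest sum was not the highest for B2m. The C57BL6/J array with the highest sum, 2594, had the lowest B2m value of its group. At P30.5 B2m read 8.64, 8.91 and 9.38 in CAST/EiJ, 9.64, 9.18 and 8.97 in the NOD.NON-H2-nb1 strain, 9.62, 9.73 and 9.99 in AKR/J and 9.89, 10.36 and 9.92 in RD7, against 10.004, 9.24 and 9.94 in C57BL6/J. The pigment sums of these arrays were 9899, 14721 and 25049 in CAST/EiJ, 22443, 12277 and 14711 in the NOD.NON-H2-nb1 pools, 33129, 31220 and 35596 in AKR/J and 7902, 23132 and 8099 in RD7, against 26795, 5975 and 15721 in C57BL6/J, and in each group the array with the highest sum also had the highest B2m value. The part of this tissue in B2m was not tested. Arrays of the strains overlapped with C57BL6/J in each case, and the difference with the smallest adjusted p was -0.75 (adjusted p = 0.0456) in CAST/EiJ.

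Among the class II genes, H2-Ab1 was called between strains, on 1 of its 3 probe sets. The MAS5 signals of 1450648_s_at at E18.5 were 15.6, 3.04 and 14.4 in the NOD.NON-H2-nb1 arrays and 5.75 and 7.38 in AKR/J, against 257, 208 and 343 in C57BL6/J. CAST/EiJ arrays, at 288, 256 and 246, and RD7 arrays, at 368, 284 and 154, lay near C57BL6/J. On the log2 MAS5 scale the differences were -4.91 (SE 0.67, adjusted p = 0.000108) in the NOD.NON-H2-nb1 strain and -5.34 (SE 0.75, adjusted p = 0.000138) in AKR/J, and both were called. The low signals lie far below the array medians, so the size rests on dim values. On log2(signal + 16) the differences were -3.41 (adjusted p = 9.09e-06) and -3.64 (adjusted p = 2.05e-05). At P30.5 the signals were 26.9, 6.57 and 6.38 in the NOD.NON-H2-nb1 strain and 12.6, 53.7 and 30.9 in AKR/J, against 149.6, 97.4 and 181 in C57BL6/J, without overlap in either strain, and the differences of -3.73 (adjusted p = 0.00214) and -2.33 (adjusted p = 0.0751) were not called, while on log2(signal + 16) that of NOD.NON-H2-nb1 was -2.47 (adjusted p = 0.000603) and was called. At P30.5, 17% and 19.1% of all probe sets had no overlap on MAS5 signals in these strains, in either direction. Blocked on the date in the titles, the NOD.NON-H2-nb1 difference at E18.5 was -4.54 (adjusted p = 0.00201) and lost its call. With the muscle and mesenchyme covariate the AKR/J difference was -5.99 (adjusted p = 0.00433). The NOD.NON-H2-nb1 call was also lost without replicate 2 of that group or replicate 3 of C57BL6/J, and the AKR/J call without either AKR/J array or replicate 3 of C57BL6/J.

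The other 2 H2-Ab1 probe sets did not show a gap of that size, though all 3 had means below C57BL6/J at E18.5 in every strain. Log2 differences over the 3 ran from -4.91 to -1.80 in the NOD.NON-H2-nb1 strain and from -5.34 to -2.29 in AKR/J. In CAST/EiJ they ran from -0.778 to -0.007 and in RD7 from -1.335 to -0.063. Probe set 1451721_a_at gave 8.04 and 16.5 in AKR/J and 24, 3.97 and 45.2 in the NOD.NON-H2-nb1 strain at E18.5, against 48.4, 68.2 and 54.6 in C57BL6/J, and was at most 84.4 in any array. Probe set 1425477_x_at ranged from 2.41 to 54.9 over the 29 arrays. H2-Eb1, on 1417025_at, had signals at E18.5 of 120.2, 128 and 119 in the NOD.NON-H2-nb1 arrays, against 34.4, 5.13 and 43.1 in C57BL6/J. All 3 NOD.NON-H2-nb1 arrays were above the C57BL6/J arrays, but the log2 difference of 2.64 (adjusted p = 0.0184) was not called. On MAS5 signals 17.1% of all probe sets had no overlap in this comparison, in either direction. H2-Eb1 is the class II gene whose stretch above holds both the X box part and the Y box.

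H2-Aa and Cd74 were dim in all groups, and no strain difference of either was called. H2-Aa 1435290_x_at ran between 4.09 and 5.62 RMA units over the 29 arrays, and Cd74 1425519_a_at between 5.00 and 6.34. In both, C57BL6/J at E18.5 was the lowest group, with H2-Aa at 4.14, 4.09 and 4.10 and Cd74 at 5.41, 5.05 and 5.00. At E18.5, every array of the other 4 strains was above every C57BL6/J array for H2-Aa, by a mean difference of 0.34 in AKR/J to 0.48 in RD7. Such gaps were common at this age. AKR/J had no overlap with C57BL6/J on 50.2% of all RMA probe sets, in either direction. The share was 44.2% for CAST/EiJ, 23.2% for RD7 and 22% for the NOD.NON-H2-nb1 strain. On these probe sets the largest strain differences were -0.75 (adjusted p = 0.0459) at P30.5 for H2-Aa in the NOD.NON-H2-nb1 strain and 0.50 (adjusted p = 0.044) for Cd74 in CAST/EiJ at E18.5, and neither was called. The remaining 3 H2-Aa probe sets had MAS5 signals of at most 118.6 in any array, with log2 differences as wide as -4.27 in AKR/J at E18.5 on 1443783_x_at, which was not called. Cd74 lies on chromosome 18 and outside the H2 region.

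**Figure D3:**
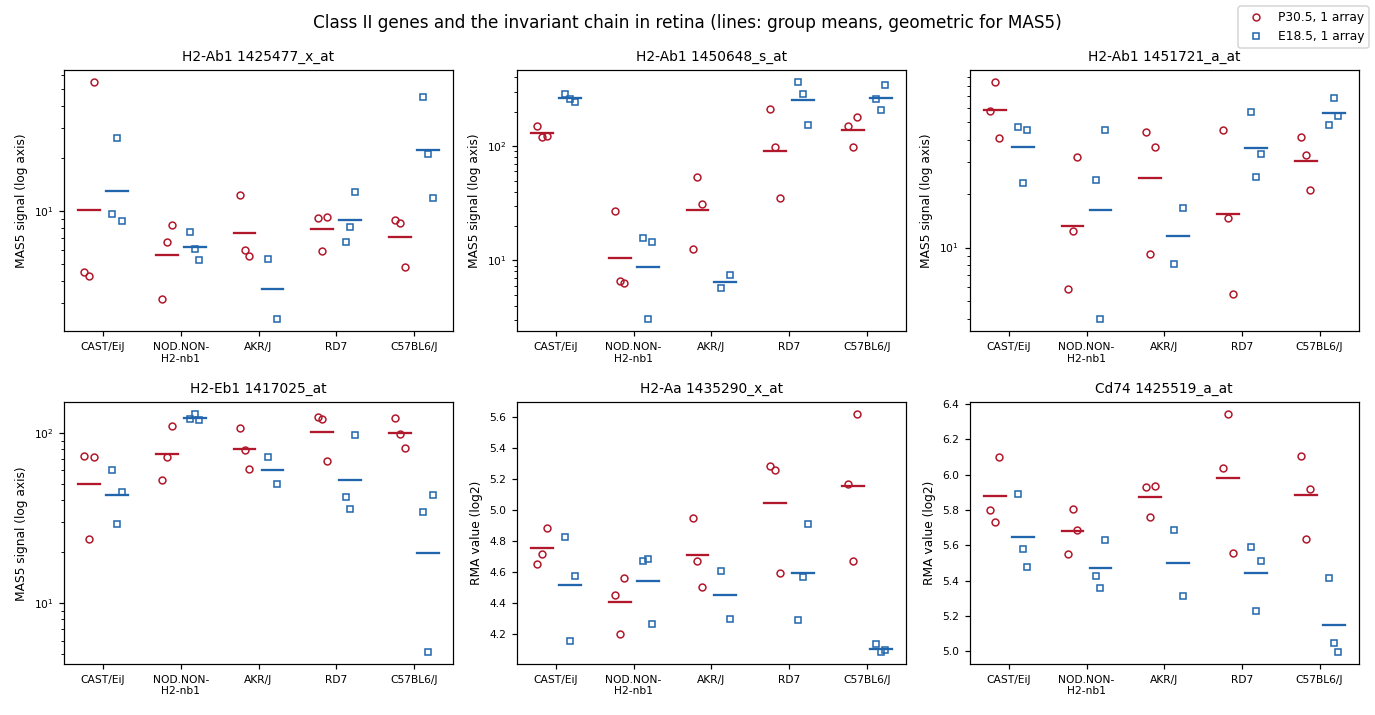
Signals of class II genes and Cd74 in every array by strain (MAS5 signal on log axes for H2-Ab1 and H2-Eb1, RMA log2 values for H2-Aa and Cd74), with P30.5 as circles, E18.5 as squares and lines for group means (geometric for MAS5). The H2-Ab1 probe set 1450648_s_at is at 3.04 to 15.6 MAS5 signal at E18.5 in the NOD.NON-H2-nb1 strain and AKR/J arrays, and at 154 or more in the other strains.

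Of the 19 probe sets with MAS5 signals only, 1 was called in each of CAST/EiJ (B2m), NOD.NON-H2-nb1 (H2-Ab1) and AKR/J (H2-Ab1) at E18.5, where 4.47%, 0.539% and 0.947% of all 45101 probe sets were called on log2 MAS5 signals. In RD7 at E18.5, 0 were called by limma, where 0.02% of all were called, and 2 of the 19 had an unadjusted p under 0.05. For the P30.5 comparisons of CAST/EiJ, of NOD.NON-H2-nb1, of AKR/J and of RD7, 0 were called by limma, where 3.67%, 0.565%, 0.596% and 0.104% of all were called. In that order, 0, 3, 3 and 1 of the 19 had an unadjusted p under 0.05. Most of these 19 probe sets were dim. The 4 H2-D1 probe sets among them ran from 1.16 to 106.5 MAS5 signal, the 3 for Tap1 from 1.21 to 70.9 and that of Psmb8 from 0.73 to 56.3. The pair for H2-K1 ran from 1.91 to 209, with 1427746_x_at the brighter one by its median.

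For the genes of peptide cutting and transport, no strain difference was called. Tap1 1416016_at read 5.59, 6.38 and 7.19 in RD7 at E18.5, against 5.03, 5.18 and 5.53 in C57BL6/J, a difference of 1.14 (SE 0.31, adjusted p = 0.0244) that was not called. RD7 replicate 3, the array with the highest B2m value of its group, was also the highest for Tap1. Psmb8 1422962_a_at read 4.97, 5.42 and 5.82 in RD7 against 4.24, 4.67 and 5.21 in C57BL6/J at E18.5, with overlap and a difference of 0.70 (adjusted p = 0.0335). At P30.5 it read 6.42, 6.46 and 6.14 in RD7, 5.68, 5.55 and 5.62 in AKR/J, 5.61, 5.66 and 5.52 in the NOD.NON-H2-nb1 arrays and 5.46, 5.37 and 5.58 in CAST/EiJ, against 5.91, 5.997 and 5.96 in C57BL6/J. RD7 lay above C57BL6/J and the other 3 strains below it without overlap, by 0.38, -0.34, -0.36 and -0.49 in that order, and all had an adjusted p above 0.05. Of all RMA probe sets, 9.43%, 23.1%, 20.6% and 38.1% had no overlap in the same order, in either direction. Psmb9 1450696_at had MAS5 signals of 206, 147 and 111 in RD7 against 98.8, 121 and 146 in C57BL6/J at P30.5, and the arrays overlapped. Its widest strain difference was -0.95 (SE 0.31, adjusted p = 0.161) in the NOD.NON-H2-nb1 strain at P30.5, with signals of 66.1, 43 and 84.9 and no overlap with C57BL6/J. On MAS5 signals 17% of all probe sets had no overlap there, in either direction.

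**Figure D4:**
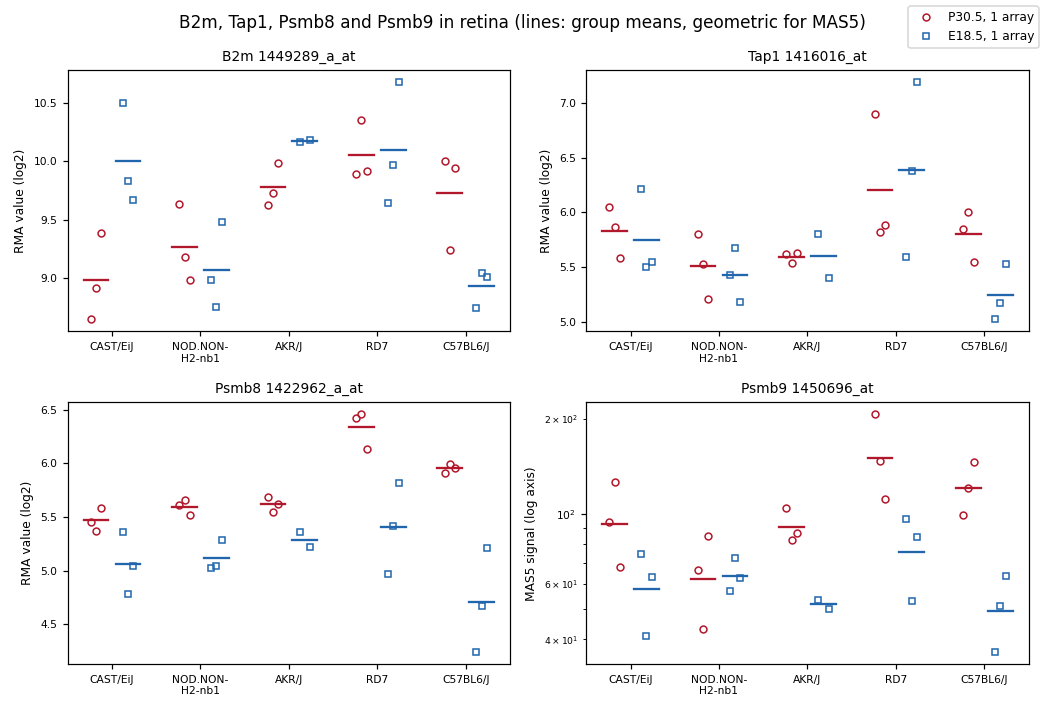
B2m, Tap1 and Psmb8 (RMA log2 values) and Psmb9 (MAS5 signal, log axis) in every array by strain, with P30.5 as circles, E18.5 as squares and lines for group means (geometric for MAS5). Psmb8 and Psmb9 were higher at P30.5 than at E18.5 in every C57BL6/J array, and B2m in C57BL6/J at E18.5 lay between 8.74 and 9.04. Between the ages in C57BL6/J, 56.1% of all probe sets on RMA values and 42% on MAS5 signals had no overlap, in either direction.

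Between ages, 2 of the 7 class I heavy chain probe sets were called higher at P30.5 in CAST/EiJ, 2 in RD7, 2 in the NOD.NON-H2-nb1 retinas, 1 in C57BL6/J and 0 in AKR/J. H2-D1 1426324_at had negative differences in all 5 strains, none called, with -0.65 (adjusted p = 0.02) in C57BL6/J the widest. H2-K1 1425336_x_at read 9.60, 9.47 and 9.99 at P30.5 and 7.68, 7.99 and 8.71 at E18.5 in RD7, a difference of 1.56 (adjusted p = 2.69e-06). The NOD.NON-H2-nb1 arrays read 8.48, 8.25 and 8.72 at P30.5 and 7.27, 7.28 and 7.63 at E18.5, a difference of 1.09 (adjusted p = 0.000233), and in C57BL6/J the difference was 1.43 (adjusted p = 7.82e-06). In CAST/EiJ and AKR/J it was 0.07 (adjusted p = 0.843) and 0.32 (adjusted p = 0.314). H2-D1 1451683_x_at was called higher at P30.5 in RD7, by 1.18 (adjusted p = 0.000544), and in CAST/EiJ, by 1.37 (adjusted p = 0.000117). 1450170_x_at was called in CAST/EiJ at 1.73 (adjusted p = 0.00045), although the P30.5 and E18.5 arrays overlapped.

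Psmb8 rose with age in C57BL6/J, with values of 5.91, 5.997 and 5.96 at P30.5 and 4.24, 4.67 and 5.21 at E18.5 (1.25 log2, SE 0.20, adjusted p = 1.32e-05). In RD7 its difference of 0.94 (adjusted p = 0.000431) passed the p threshold and was under 2-fold. Psmb9 had MAS5 signals in C57BL6/J of 98.8, 121 and 146 at P30.5 and 36.4, 51.1 and 63.5 at E18.5 and a log2 difference of 1.29 (adjusted p = 0.00314) that was not called. In the same strain H2-Aa 1435290_x_at was called higher at P30.5, by 1.04 (adjusted p = 0.000439), while Cd74 at 0.73 (adjusted p = 0.00181) and H2-Eb1 at 2.34 (adjusted p = 0.00525) were not called. Blocked on the date in the titles, H2-Aa was at 1.09 (adjusted p = 0.0012) and lost its call. The B2m difference with age was -1.03 (adjusted p = 0.00361) in CAST/EiJ and 0.80 (adjusted p = 0.019) in C57BL6/J.

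These counts were near the share of all probe sets that changed with age, apart from 0 in AKR/J. Its E18.5 group had 2 arrays, and whether 0 of 12 differs from that share was not tested. Of the 12 probe sets with RMA values, 2 were called in CAST/EiJ, 2 in the NOD.NON-H2-nb1 mice, 0 in AKR/J, 2 in RD7 and 3 in C57BL6/J, all higher at P30.5. Of all probe sets, 15.4%, 16.9%, 16.7%, 17% and 18% were called in the same order. In AKR/J, 0 of the 12 had an unadjusted p under 0.05 by limma. Of the 19 with MAS5 signals only, 0 were called in any strain by limma, where 10.2%, 10.1%, 8.57%, 9.74% and 10.4% of all MAS5 probe sets were called in that order. At an unadjusted p under 0.05 there were 3, 0, 3, 3 and 7 of the 19. The counts rested on single arrays. Without CAST/EiJ replicate 1 at E18.5 the CAST/EiJ count was 5, and without its replicate 2 or 3 at E18.5, or replicate 3 at P30.5, it was 0, and without its replicate 2 at P30.5 it was 1. Without RD7 replicate 3 at E18.5 the RD7 count was 5, and without its replicate 1 or 2 at E18.5, or replicate 2 at P30.5, it was 1. In NOD.NON-H2-nb1 the count was 0 without replicate 3 at P30.5 or replicate 1 at E18.5, and 1 without replicate 1 at P30.5 or replicate 2 at E18.5.

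The sample titles hold a date, with 4 dates in all, and do not say what it marks, and arrays of different groups share dates. Within every date that both groups of a comparison shared, 30 of the 31 called strain and age differences of members kept their sign, over 2 or 3 dates each. Where the arrays of the groups do not overlap, the sign within a date is fixed in advance, so this count is no separate check of the date. For H2-K1 1425336_x_at the within-date differences at P30.5 were -2.60, -2.96 and -2.52 in CAST/EiJ and -3.12 and -2.50 in AKR/J. For H2-D1 1425545_x_at in AKR/J they were -4.13 and -3.76 at P30.5, and for H2-Ab1 1450648_s_at at E18.5 they were -3.86 and -4.04 in the NOD.NON-H2-nb1 mice. The exception was H2-D1 1450170_x_at between ages in CAST/EiJ, at 3.06, 2.25 and -0.12.

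Whether a strain difference itself changed with age was tested as an interaction, the difference at P30.5 minus that at E18.5. None of the 12 probe sets was called in any strain by limma, with 6 in CAST/EiJ, 2 in the NOD.NON-H2-nb1 mice, 6 in AKR/J and 2 in RD7 at an unadjusted p under 0.05. Of all probe sets, 0.869%, 0.177%, 0.236% and 0.169% were called in the same order. On MAS5 signals, 0 of the other 19 were called, with 2, 3, 4 and 1 at an unadjusted p under 0.05 and 0.0776%, 0.0111%, 0.0155% and 0.0377% called overall. In 3 cases an adjusted p was under 0.05. B2m 1449289_a_at in CAST/EiJ was at -1.82 (SE 0.38, adjusted p = 0.0046), higher than C57BL6/J at E18.5 and lower at P30.5. The other B2m probe set, 1452428_a_at, was at -1.41 (adjusted p = 0.0874) on MAS5 signals. It was not lower than C57BL6/J at P30.5, with a difference of 0.025. H2-K1 1425336_x_at in CAST/EiJ was at -1.37 (adjusted p = 0.00799) and 1451931_x_at in AKR/J at -1.01 (adjusted p = 0.0414), both further below C57BL6/J at P30.5. On MAS5 signals the AKR/J value turned to 2.86 (adjusted p = 0.201). In CAST/EiJ the other class I probe sets with RMA values went the other way. There H2-K1 1451931_x_at was at 0.36 (adjusted p = 0.513), and those of H2-D1 ran from 0.21 to 1.49. Without CAST/EiJ replicate 1 at E18.5, 2 of the 12 passed the call in that strain.

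For other genes of the pathway, each strain comparison of a gene was counted as a test. Calls were 1 of 72 tests for class I heavy chains, 2 of 56 for peptide loading, 3 of 72 for the class II list and 0 of 104 for regulators. Of all RMA probe sets, 0.295% to 7.84% were called in these comparisons, and 0.02% to 4.47% on MAS5 signals. Of 9 measured class I heavy chain genes outside the members, 1 was called, with Cd1d1, a lipid-presenting class I-like molecule, lower in AKR/J at E18.5, at -1.11 (adjusted p = 0.000489). Of 7 genes of peptide loading, 1 was called, with Erap1, the aminopeptidase that trims peptides in the endoplasmic reticulum, higher in CAST/EiJ at both ages. Erap1 read 8.25, 8.54 and 8.54 in CAST/EiJ at P30.5, against 6.66, 6.91 and 6.96 in C57BL6/J, a difference of 1.60 (adjusted p = 1.59e-05). At E18.5 the difference was 1.16 (adjusted p = 0.000615). In the class II list, with 9 of 11 genes measured, Lgmn and Ctss, proteases of the endosome, were called lower in CAST/EiJ. The Lgmn difference was -2.12 (adjusted p = 7.73e-06) at E18.5 and -1.52 (adjusted p = 0.000458) at P30.5, and that of Ctss was -1.11 (adjusted p = 3.95e-05) at P30.5, where it read 8.29, 8.88 and 8.58 in CAST/EiJ and 9.55, 9.62 and 9.91 in C57BL6/J. Of 13 regulators of MHC genes, such as Ciita, Nlrc5 and Irf1, 0 were called in the 8 strain comparisons by limma, with 17 of 104 tests at an unadjusted p under 0.05.

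With age, 3 of the 7 peptide loading genes were called higher in some or all strains. Calls were 12 of 35 tests in this list, 7 of 45 for class I heavy chains, 10 of 45 for the class II list and 5 of 65 for regulators. Of all RMA probe sets, 15.4% to 18% were called with age, in either direction. Tapbp, which encodes tapasin, the bridge between class I chains and the transporter, was higher at P30.5 in all 5 strains, by 1.58 in RD7 to 2.62 in C57BL6/J. In C57BL6/J it read 9.66, 9.87 and 9.74 at P30.5 and 7.04, 7.24 and 7.13 at E18.5. Tap2, the partner of Tap1, was called higher in all but C57BL6/J, by 1.04 to 1.34, and Erap1 in CAST/EiJ, NOD.NON-H2-nb1 and C57BL6/J, by 1.65 to 2.19. Rfx5, a subunit of the RFX complex that binds the X box, was higher at P30.5 in all 5 strains, by 1.30 to 1.63, and was the only regulator called. Ctss was called higher in all but CAST/EiJ, by 1.13 to 1.38. Lgmn was called higher in all but C57BL6/J, by 1.29 to 1.85. Ifi30, a thiol reductase of the endosome, had age differences of -1.02 (adjusted p = 0.000941) in CAST/EiJ and -1.32 (adjusted p = 5.21e-05) in RD7, both called lower. Cd1d1 was lower at P30.5 in all 5 strains, with differences of -2.74 to -3.63, and H2-M3, a class I molecule that presents formylated peptides, was higher in CAST/EiJ and RD7 by 1.23 and 1.19. Of the immunoproteasome genes outside the members, Psmb10, a catalytic subunit, and Psme1, a subunit of the activator PA28, and of the 3 constitutive catalytic subunits, 0 were called in any of 17 comparisons by limma, with 15 of 34 and 10 of 51 tests at an unadjusted p under 0.05.

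Of 13 measured genes that interferon is known to induce, 2 were called higher in CAST/EiJ, 3 in AKR/J, 1 in RD7 and 0 in the NOD.NON-H2-nb1 pools at E18.5, where 7.84%, 4.38%, 0.295% and 1.63% of all RMA probe sets were called in either direction. Ifi35 read 7.16, 8.55 and 9.22 in RD7, 8.17 and 8.21 in AKR/J and 8.51, 7.69 and 7.33 in CAST/EiJ, against 6.17, 5.81 and 5.54 in C57BL6/J, and was higher by 2.47 (adjusted p = 0.000405), 2.35 (adjusted p = 0.000254) and 2.00 (adjusted p = 0.000194). Ifit3 was higher on log2 MAS5 signals in AKR/J by 2.34 (adjusted p = 0.00041) and in CAST/EiJ by 2.21 (adjusted p = 5.24e-05), and Gbp7 in AKR/J by 1.94 (adjusted p = 0.000176). At P30.5 only Gbp7 was called, lower in CAST/EiJ, at -1.58 (adjusted p = 0.00024). With age, 8 of 13 were called higher in C57BL6/J, 5 in RD7, 5 in the NOD.NON-H2-nb1 strain, and 0 in CAST/EiJ and AKR/J, against 15.4% to 18% of all RMA probe sets called in either direction. In C57BL6/J the largest were Ifit3 at 3.72, Ifi35 at 2.49, Gbp7 at 2.22 and Gbp2 at 1.80. In RD7, Ifit1, at 8.95, 6.62 and 6.48 at P30.5 and 4.56, 4.36 and 4.97 at E18.5, changed by 2.72 (adjusted p = 1.54e-06), and replicate 1 stood well above the other P30.5 arrays. The median log2 difference of the 13 with age was 0.42 in CAST/EiJ, 1.07 in the NOD.NON-H2-nb1 mice, 0.43 in AKR/J, 0.95 in RD7 and 1.68 in C57BL6/J, where the medians of all RMA probe sets lay between -0.04 and 0.01.

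**Figure D5:**
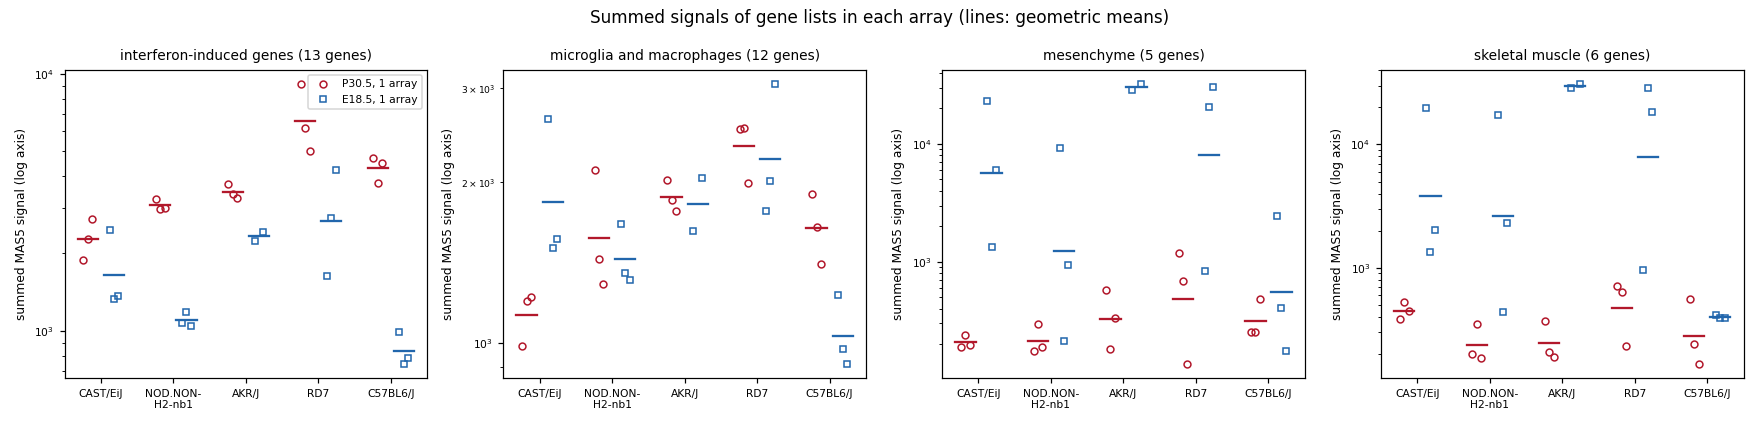
Summed MAS5 signals (log axes) of interferon-induced, microglia and macrophage, mesenchyme and skeletal muscle genes in every array by strain, with P30.5 as circles, E18.5 as squares and lines for geometric means. At E18.5 the C57BL6/J arrays have the lowest sums of interferon-induced genes, 742 to 986, and AKR/J arrays have muscle sums of 28778 and 31099.

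Markers of immune cells were set beside these results. The summed signal of 12 microglia and macrophage genes at E18.5 was 1764, 2012 and 3061 in RD7, 2629, 1504 and 1566 in CAST/EiJ, 1623 and 2038 in AKR/J and 1669, 1352 and 1314 in the NOD.NON-H2-nb1 pools, against 1229, 976 and 913 in C57BL6/J. All arrays of the other strains lay above the highest C57BL6/J array, as with B2m in RD7, CAST/EiJ and AKR/J. For NOD.NON-H2-nb1 the B2m arrays overlapped with C57BL6/J, unlike its microglia sums. Of the 12 genes, 1 was called higher in AKR/J and in RD7 at E18.5, Laptm5, a lysosomal protein of blood-derived cells, by 1.42 (adjusted p = 0.000855) and 1.81 (adjusted p = 0.00031). Of all RMA probe sets, 4.38% and 0.295% were called in these comparisons, in either direction. C1qa and Laptm5 were called lower at P30.5 than at E18.5 in CAST/EiJ, at -1.06 and -1.45, where 15.4% of all RMA probe sets were called. At P30.5 the microglia sums were 2520, 2533 and 1996 in RD7 and 985, 1199 and 1219 in CAST/EiJ, against 1898, 1648 and 1408 in C57BL6/J. Markers of B cells and dendritic cells (5 genes) and of T and NK cells (4 genes) gave 0 calls in 17 comparisons by limma, with 15 of 85 and 6 of 68 tests at an unadjusted p under 0.05. The T and NK cell genes reached 35.83 (Cd3e), 47.35 (Cd3g), 137 (Nkg7) and 138.1 (Cd8a) MAS5 signal in their highest array, and the B and dendritic cell genes 52.63 (Cd79b), 61.32 (Ms4a1), 100.2 (Itgax), 104.3 (Cd79a) and 165.8 (Flt3). The part of these cells in the member values was not tested.

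Over all 29 arrays, the genes most like H2-K1 1451931_x_at in log2 MAS5 signal were Zfp287 (Pearson r = 0.867), Zfp790 (0.864) and Calr3 (0.835), followed by Gm10033 and 1110019D14Rik (both 0.822). Of the other members H2-D1 1425545_x_at was closest, at 0.812, and B2m was at -0.268. Those most like Cd74 were Mef2b (0.775), Lrrc38 (0.772), Lexis1 (0.767), Rab3ip (0.763) and Fry (0.757), and of the members Psmb9 came closest, at 0.583. The arrays share strain and age, so these values describe a shared pattern over groups.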

How the data were processed

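Retina RNA of 5 mouse strains at P30.5 and E18.5 was hybridized to 29 Affymetrix arrays, 1 pool of 10 retinas each. The authors deposited RMA values (log2 scale) for 25444 probe sets and MAS5 signals (linear intensity) for all 45101. Values were made from the scans by RMA and by MAS5. Software versions, the rule that left probe sets out of the RMA table and the MAS5 scaling target are not given in the sources used here. Probe sets were named through the platform's annotation, where 34958 have 1 symbol, 932 several and 9211 none.

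The deposited RMA values, and log2 of the deposited MAS5 intensity values, were each fitted with limma 3.58.1 (R 4.3.3) as 1 mean per group over all arrays, with 19 residual degrees of freedom and Benjamini-Hochberg adjustment over all probe sets within each of 17 comparisons. RMA values were used where present and MAS5 signals otherwise. The fit was tested on simulated data. A call needed an adjusted p under 0.001 and a fold change of at least 2. All tests were two-sided. All member probe sets were described. From the other lists, up to 4 genes per list and comparison were named, those with the largest difference among called genes whose arrays did not overlap, a gene being taken at its brightest probe set by mean. Likeness is Pearson's r of log2 MAS5 signals over probe sets with a highest group mean of 6 or more. The members and lists were chosen with earlier results of these data known. Alternatives were MAS5 in place of RMA, the date in the titles as a fixed or random block, other sets of arrays, a trend and robust prior, a filter on dim probe sets, median centring, a pseudocount of 16, each array left out in turn and, chosen after seeing the data, the summed muscle and mesenchyme level as a covariate. Numbers of arrays limit the precision. The sample titles hold a date, with no word on what it marks, and no replicate numbers, so the block on that date is the paired fit.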

Additional observations from a re-analysis of the deposited data

Results flagged for a closer look

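The difference of a strain from C57BL6/J itself differed between the ages for 3 member probe sets, at an adjusted p under 0.05 for the interaction (limma, P30.5 difference minus E18.5 difference), and for 2 genes of the other lists that passed the full call. List genes under 0.05 without a call are left out here. For CAST/EiJ these were H2-K1 1425336_x_at at -1.368 (adjusted p = 0.00799), B2m 1449289_a_at at -1.823 (adjusted p = 0.0046), and the interferon-induced genes Gbp7 at -2.334 (adjusted p = 0.00099) and Ifit3 at -3.305 (adjusted p = 0.000748). For AKR/J it was H2-K1 1451931_x_at at -1.014 (adjusted p = 0.0414). Gbp7 and Ifit3 are the called ones. All 5 were negative, so on these probe sets the strain stood lower against C57BL6/J at P30.5 than at E18.5. The other class I probe sets with RMA values went the other way in CAST/EiJ. H2-K1 1451931_x_at was at 0.36 (adjusted p = 0.513) by limma, and those of H2-D1 ran from 0.21 to 1.49, none called. The other B2m probe set, 1452428_a_at, was at -1.41 (adjusted p = 0.0874) on MAS5 signals. In the E18.5 CAST/EiJ arrays the muscle sums were 19752, 1349 and 2038, against 418, 391 and 392 in C57BL6/J, and the pigment sums 19672, 19995 and 16351, against 2594, 2354 and 1393. With the muscle and mesenchyme level as a covariate the flagged member values were -1.189 (adjusted p = 0.0349), -1.543 (adjusted p = 0.0224) and, in AKR/J, -0.897 (adjusted p = 0.455). The part of the pigment genes was not tested.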

How the results depend on the processing

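Leaving out single arrays, blocking on the date in the titles and changing the arrays in the fit moved counts of called member probe sets that were small to begin with. With MAS5 signals used for them, the 12 probe sets with RMA values gave 2 calls in CAST/EiJ and 2 in AKR/J at P30.5, and with age 0 in CAST/EiJ, 0 in the NOD.NON-H2-nb1 mice, 1 in AKR/J, 1 in RD7 and 1 in C57BL6/J. H2-K1 1451931_x_at reversed there, to -0.222 (adjusted p = 0.85) with age in C57BL6/J and to 2.857 (adjusted p = 0.201) for the AKR/J interaction. The cause was not tested. A fit of only the groups compared, which has fewer samples, gave 1 for CAST/EiJ at E18.5, and with age 0 in CAST/EiJ, 0 in RD7 and 1 in C57BL6/J. Arrays of the same age alone gave 2 for CAST/EiJ and 1 for AKR/J at E18.5. The covariate gave 2 for AKR/J at E18.5, and without the RD7 arrays CAST/EiJ had 1 with age.

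Among the 19 probe sets with MAS5 signals only, the E18.5 counts of 1 became 0 in the NOD.NON-H2-nb1 mice and CAST/EiJ with the title date as fixed replicate block, 0 in those strains and AKR/J with only the groups compared or only the same age, and 0 in CAST/EiJ and AKR/J with the covariate. The replicate block gave 1 with age in C57BL6/J. A trend and robust prior, and log2(signal + 16), each gave 1 for NOD.NON-H2-nb1 mice at P30.5. With 1 array left out, the 19 gave 0 in CAST/EiJ in every case, 0 to 1 in AKR/J, and at either age 0 to 1 in the NOD.NON-H2-nb1 mice. The 12 gave 3 to 5 in AKR/J and 0 to 1 in RD7 at E18.5, with age 0 to 5 in CAST/EiJ, 0 to 2 in the NOD.NON-H2-nb1 mice and 1 to 5 in RD7, and 0 to 2 for the CAST/EiJ interaction. The highest came without E18.5 replicate 1 of CAST/EiJ (5 with age, 2 for the interaction), E18.5 replicate 3 of RD7 (5) and E18.5 replicate 1 of RD7 (1 for the strain). The 3 in AKR/J came without replicate 2, and 0 with age came without P30.5 replicate 3 or E18.5 replicate 2 or 3 in CAST/EiJ and without P30.5 replicate 3 or E18.5 replicate 1 in the NOD.NON-H2-nb1 mice. A group of 1 remaining AKR/J array was assumed to vary like the other groups. Of the member differences described, 3 lost and 3 gained a call with the fixed date block and 73 did neither, and with the random block 2 gained one and none was lost. Most MAS5-only member probe sets were dim, which limits what they can show.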
